A study of Mus musculus with 18 samples.

Results

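Chemokine ligands were taken as every gene of the deposited expression table whose symbol is Ccl plus a number (with at most 1 letter after it), Cxcl plus a number, or Cx3cl1 or Xcl1. The rule uses names only, and it found 39 of 23951 genes. The table covers 18 poly(A) RNA-seq libraries from cells sorted from fresh mouse pancreas and pancreatic tumors, in 5 groups. Normal pancreatic fibroblasts (NPF, n = 3) came from mice labelled K-Ras+/+, Elas-tTA/tetO-Cre and Rosa26+/EYFP. Cancer-associated fibroblasts (WT_CAF, n = 5) and tumor cells (WT_tumor, n = 4) came from tumor-bearing mice that carry the same Elas-tTA/tetO-Cre and Rosa26+/EYFP alleles together with K-Ras+/LSLG12Vgeo and Trp53lox/lox. KO_CAF (n = 3) and KO_tumor (n = 3) carried the same alleles plus Saa3-/-, the loss of serum amyloid A3, an acute-phase protein. The elastase promoter that switches on Cre is an acinar promoter, and the fibroblasts of the tumor-bearing mice carry the K-Ras and Trp53 alleles in their germ line; their recombination state was not tested. The labels state neither the age of the mice nor the markers used for sorting.

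Chemokines are small secreted proteins that bind G-protein-coupled receptors and direct leukocyte migration. CC ligands such as Ccl2 and Ccl7 draw monocytes through Ccr2, the Cxcl1 family draws neutrophils through Cxcr2, and interferon-induced ligands such as Cxcl10 draw T cells through Cxcr3. In pancreatic tumors, inflammatory fibroblasts are known as a source of Cxcl1, Cxcl12 and Ccl2, and several of these genes are classical targets of the transcription factor NF-kB.

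Promoter stretches are shown for Cxcl1, Cxcl2, Cxcl3, Ccl20 and Cxcl10, chosen among the members whose RefSeq promoter held a match to an NF-kB or interferon response motif. The matches in Ccl9, Cxcl14 and Ccl19 are not shown. Promoters of 27 of the 39 members were matched by symbol in RefSeq (GRCm38.p6). The NF-kB letters searched were GGGNNTTTCC, on both strands, in the 250 bases before each annotated start. They were found in 1.41% of 32851 promoter windows and in 5 of the 27 matched members: Cxcl1, Cxcl2, Cxcl3, Ccl20 and Ccl9. Capitals mark the matches, which began between 71 and 97 bases before the start in the 4 promoters shown. Each of these genes lies on the + strand, and a match may read the letters from either strand, as the first match of Cxcl1 and that of Ccl20 do.
Cxcl1 (chr5:90891125-90891244): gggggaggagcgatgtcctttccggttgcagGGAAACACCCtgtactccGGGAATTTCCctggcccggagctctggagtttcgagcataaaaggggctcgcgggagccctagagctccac
Cxcl2 (chr5:90903779-90903898): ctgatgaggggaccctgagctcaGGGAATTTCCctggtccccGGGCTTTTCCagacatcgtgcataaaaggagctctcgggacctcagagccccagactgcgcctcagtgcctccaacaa
Cxcl3 (chr5:90785981-90786100): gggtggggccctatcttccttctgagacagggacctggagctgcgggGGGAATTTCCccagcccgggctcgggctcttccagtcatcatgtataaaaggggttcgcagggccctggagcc
Ccl20 (chr1:83116646-83116765): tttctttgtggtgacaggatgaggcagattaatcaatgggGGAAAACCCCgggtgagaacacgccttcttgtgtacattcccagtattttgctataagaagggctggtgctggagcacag

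The interferon response letters GAAANNGAAA, searched in the same way, were found in 2.98% of windows and in 3 of the 27 matched members, Cxcl10, Cxcl14 and Ccl19. The Cxcl10 stretch, on the - strand of the same build, is shown with its match in capitals.
Cxcl10 (chr5:92348890-92349109): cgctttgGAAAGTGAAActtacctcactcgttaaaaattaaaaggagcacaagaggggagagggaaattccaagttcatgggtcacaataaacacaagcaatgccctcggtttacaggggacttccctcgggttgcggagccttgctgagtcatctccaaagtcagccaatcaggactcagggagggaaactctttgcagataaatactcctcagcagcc

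A match is a description of letters and not of binding. The AP-1 letters TGANTCA were found in 6.75% of windows and in 4 of the 27 matched members, with Cxcl10 and Ccl9 among them. Many of these genes also lie side by side: in the RefSeq gene order, 22 of 38 matched members sit next to another member, with Ccl2, Ccl7, Ccl11, Ccl12, Ccl8 and Ccl1 in 1 run, Ccl5, Ccl9, Ccl6, Ccl3 and Ccl4 in another, and Cxcl3, Cxcl15, Cxcl1 and Cxcl2 in one more.

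Values are FPKM, which are scaled by transcript length and can be set side by side between genes. Library sums of FPKM ran from 396646 to 919859, 13 to 23 chemokine ligands per library reached 1 FPKM, and the number of reads behind each value is unknown. Saa3 stood at 0 to 1.85 FPKM in the 6 knockout libraries and at 2.75 to 4278 in the other 12. The library labelled WT_CAF 1 stood apart from its group. Its 10 fibroblast markers summed to 893 FPKM against 14483 to 18960 in WT_CAF 2 to 5, and its 10 epithelial markers to 648 against 37.8 to 352. All 7 tumor cell libraries had epithelial marker sums of 2963 FPKM or more and fibroblast marker sums of 681 or less. Their acinar marker sums ran from 10.4 to 10784 FPKM in WT_tumor and from 7.77 to 12720 in KO_tumor. The part of acinar cells in tumor cell values was not tested. In RNA from bulk sorted cells, fewer cells of a type and less RNA per cell cannot be told apart.

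By summed FPKM, chemokine RNA was more abundant in fibroblasts than in tumor cells, except in WT_CAF 1 and, against WT_tumor 3, in WT_CAF 5. As a share of all FPKM in the library, WT_CAF 5 (0.218%) was above WT_tumor 3 (0.197%). The 39 ligands summed to 2546, 2027 and 2259 FPKM in NPF. In WT_CAF they summed to 212 in WT_CAF 1 and then to 6899, 4319, 9235 and 948 in WT_CAF 2 to 5, and in KO_CAF to 1103, 6891 and 6391. Tumor cells had 300.4, 259.8, 1020 and 153 in WT_tumor and 379, 228 and 259 in KO_tumor. NPF sums lay close together, with shares of 0.277%, 0.446% and 0.435% of all FPKM in NPF 1 to 3. By sum and share, tumor fibroblasts split into 5 libraries above every NPF and 3 (WT_CAF 1, WT_CAF 5 and KO_CAF 1) below every NPF. Those 3 libraries also had the highest epithelial marker sums of all fibroblasts, 648, 352 and 219 FPKM, against 7.72 to 76.1 in the other 8. KO_CAF 1 in addition had a neutrophil marker sum of 539.7 against 1.26 to 84.0 in the other fibroblasts. The part of these cells in the lower chemokine levels was not tested.

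A handful of ligands made up most of this RNA. Cxcl1, Ccl7, Ccl2 and Cxcl12 together held 59.0% to 86.3% of the ligand sum in the 11 fibroblast libraries. Ccl7 (576 ± 253 FPKM, SD, n = 3), Ccl2 (555 ± 97.7) and Ccl11 (273 ± 253) led in NPF. Cxcl1 (1473 ± 1365, n = 5), Ccl2 (720.4 ± 614) and Cxcl12 (682 ± 1113) led in WT_CAF, and Cxcl1 (1869 ± 1351, n = 3), Ccl7 (934 ± 792) and Ccl2 (859 ± 665) in KO_CAF. The leading ligand thus read Ccl7 or another CC ligand in each NPF library and Cxcl1 in each of the 8 tumor fibroblast libraries. In tumor cells Cxcl1 also led by group mean, at 157 ± 208 (n = 4) and 107 ± 41.7 (n = 3), but WT_tumor 2 was led by Ccl25, with 46.9% of its ligand sum.

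**Figure D1:**
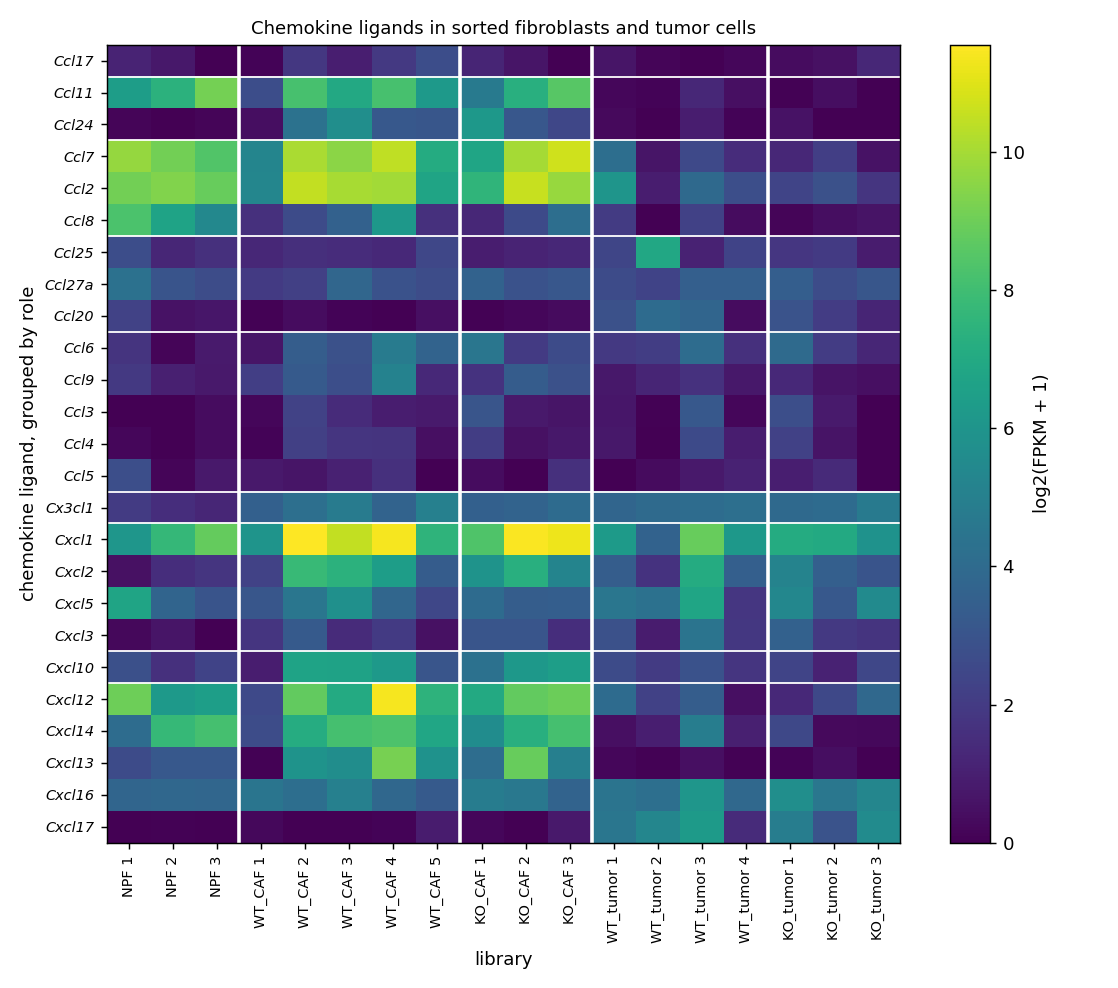
Heat map of log2(FPKM + 1) for the 25 tested chemokine ligands (rows, grouped by role) in the 18 libraries (columns, white lines between groups). Ccl2, Ccl7, Ccl11, Cxcl12 and Cxcl14 are bright in fibroblasts and dark in tumor cells, Cxcl17 shows the opposite, and WT_CAF 1 is dim across most fibroblast ligands.

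Of the 39 members, 25 reached 1 FPKM in at least 3 libraries and were tested. Differences are on the log2(FPKM + 1) scale with their standard error (SE), from limma fitted to all 13369 genes that passed this filter, with group and library format as terms. A gene was called at a Benjamini-Hochberg adjusted p under 0.05 over all 13369 genes. The filter keeps some members through the groups where they are high, so counts over the 25 describe these genes and not the family. Adding 1 before taking the logarithm shrinks the difference of low genes. Library format is the form of the index sequence in the labels (none, 6 bases or 16 bases); all NPF libraries have no index and share that form with WT_CAF 1 and 2 only, so the size of each WT_CAF minus NPF difference rests on these 5 libraries. With the format term kept, leaving out WT_CAF 1 sets WT_CAF 2 alone against NPF, and leaving out WT_CAF 2 sets WT_CAF 1 alone against it; the lone library is then assumed to vary like the other groups. The fit without WT_CAF 1 and without the format term sets WT_CAF 2 to 5 against NPF across formats. In turn, the size of each WT_tumor minus WT_CAF and KO_CAF minus WT_CAF difference rests on WT_CAF 3 to 5, and WT_CAF 1 and 2 enter it only through the spread. Fits within a single format also leave lone libraries. These are WT_CAF 3 among 6-base libraries, and WT_tumor 1, KO_CAF 3 and KO_tumor 2 among 16-base libraries.

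Between tumor and normal fibroblasts, the membrane-bound ligand Cx3cl1 was the member that passed the test, and it rose. Of the 25 tested, 1 was called higher in WT_CAF and 0 lower, where 0.277% and 0.673% of all genes were called. At an unadjusted limma p under 0.05, 6 of the 25 members differed, as did 2254 of all 13369 genes. The median difference of the members was 0.09 against -0.01 over all genes. The median turned on which library was compared: it was 1.37 with WT_CAF 2 alone (19 of 25 above 0) and -0.57 with WT_CAF 1 alone (8 of 25 above 0). Without WT_CAF 1 and without the format term it was 1.23, with 6 members called higher: Cx3cl1, Cxcl2, Cxcl10, Cxcl13, Ccl24 and Ccl6. Over all genes, 516 were called higher in that fit, against 37 in the main fit. Markers of acinar cells also differed between these groups, with sums of 658 to 27404 FPKM in NPF and 19.4 to 487 in WT_CAF, and their part in the result was not tested.

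Between knockout and wild-type cells of the same kind, no member was called. In KO_CAF against WT_CAF, 0 members were called in either direction, where 0.00748% of all genes were higher and 0% lower. An unadjusted limma p under 0.05 was found for 2 of 25 members and for 125 of all 13369 genes. In KO_tumor against WT_tumor, 0 of 25 were called, and the background was 0% in both directions. There 0 members had an unadjusted p under 0.05, against 528 of all 13369 genes. The interaction, which asks whether the knockout difference in tumor cells departs from that in fibroblasts, also gave 0 calls against a background of 0%. It had 2 members at an unadjusted p under 0.05, against 185 of all 13369 genes. The count of called members stayed at 0 for KO_CAF minus WT_CAF and KO_tumor minus WT_tumor under each alternative that was run.

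Between tumor cells and fibroblasts, many members differed. In WT_tumor minus WT_CAF, 2 of 25 were higher and 8 lower, where 9.05% of all genes were higher and 12.5% lower. The median of the members was -1.53 against 0.07 over all genes. In KO_tumor minus KO_CAF, 1 was higher and 8 lower, where 13.0% and 15.4% of all genes were called, with a median of -0.61 against 0.05. These comparisons follow by role below.

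**Figure D2:**
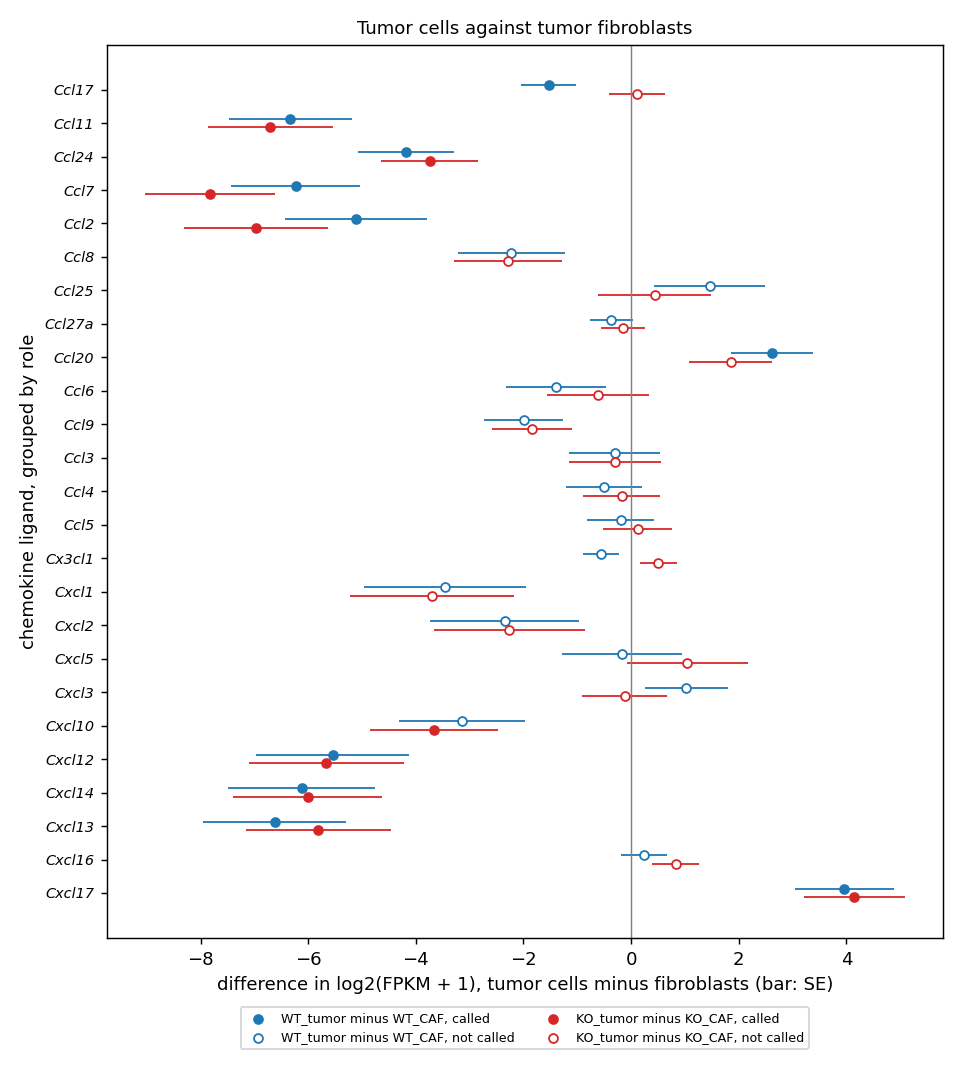
Difference in log2(FPKM + 1) between tumor cells and fibroblasts for the 25 tested ligands, in wild-type (blue) and Saa3 knockout (red) libraries; bars are SE and filled points passed the test. Ccl2, Ccl7, Ccl11, Ccl24, Cxcl12, Cxcl13 and Cxcl14 are filled on the left in both, and Cxcl17 is filled on the right in both.

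The Ccr2 ligands Ccl2, Ccl7 and Ccl8 attract monocytes. Ccl2 stood at 549, 655 and 460.1 FPKM in NPF, at 38.3, 1421, 1044, 990.2 and 108 in WT_CAF 1 to 5, at 186, 1516 and 874 in KO_CAF, at 64.9, 0.918, 14.2 and 5.81 in WT_tumor and at 4.14, 6.19 and 2.40 in KO_tumor. NPF lay inside the range of both tumor fibroblast groups, and tumor cells lay lower, except that WT_tumor 1 was above WT_CAF 1. Ccl2 was lower in WT_tumor than in WT_CAF, with a difference of -5.12 ± 1.32 (limma adjusted p = 0.0144), and in KO_tumor than in KO_CAF, with -6.97 ± 1.34 (adjusted p = 0.00236). Without WT_CAF 3 the wild-type difference was -3.64 with an adjusted p of 0.165. Within libraries with a 6-base index, where WT_CAF 3 is the only WT_CAF, it was -7.48. Within those with a 16-base index, where WT_tumor 1 is the only WT_tumor, it was -2.32 and was not called.

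Ccl7 followed the same order of groups. It stood at 840.1, 550.2 and 337 FPKM in NPF, at 36.8, 1095, 754, 1377 and 136 in WT_CAF, at 109, 1004 and 1689 in KO_CAF, at 17.1, 0.584, 4.86 and 1.78 in WT_tumor and at 1.44, 3.44 and 0.482 in KO_tumor. Every tumor cell library was below every fibroblast library. The difference was -6.24 ± 1.19 between WT_tumor and WT_CAF (limma adjusted p = 0.00295) and -7.82 ± 1.21 between KO_tumor and KO_CAF (adjusted p = 0.000711). Within 6-base libraries, with WT_CAF 3 alone, the wild-type difference was -8.00. Within 16-base libraries, with WT_tumor 1 alone, it was -4.58 and was not called.

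Among fibroblasts, the WT_CAF minus NPF difference was below 0 for Ccl2 (-1.218), Ccl7 (-1.404) and Ccl8, and it was largest for Ccl8. None of them was called. Ccl8 stood at 305, 102 and 40.8 FPKM in NPF, at 2.02, 5.28, 10.98, 71.6 and 2.02 in WT_CAF and at 1.41, 4.97 and 17.2 in KO_CAF. NPF 1 and 2 were above every tumor fibroblast, while WT_CAF 4 was above NPF 3. The WT_CAF minus NPF difference of Ccl8, -4.65 ± 1.13, did not pass the test (limma adjusted p = 0.0709). It passed when WT_CAF 4 (adjusted p = 0.0429) or WT_CAF 5 (adjusted p = 0.0256) was left out, which changes the spread and not the difference. With WT_CAF 2 alone it was -4.13 (adjusted p = 0.221), and with WT_CAF 1 alone, the library low in fibroblast markers, -5.18 (adjusted p = 0.0414). In tumor cells Ccl8 ran from 0 to 3.70 FPKM. Ccl12, the fourth Ccr2 ligand, reached at most 0.732 FPKM and was not tested.

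**Figure D3:**
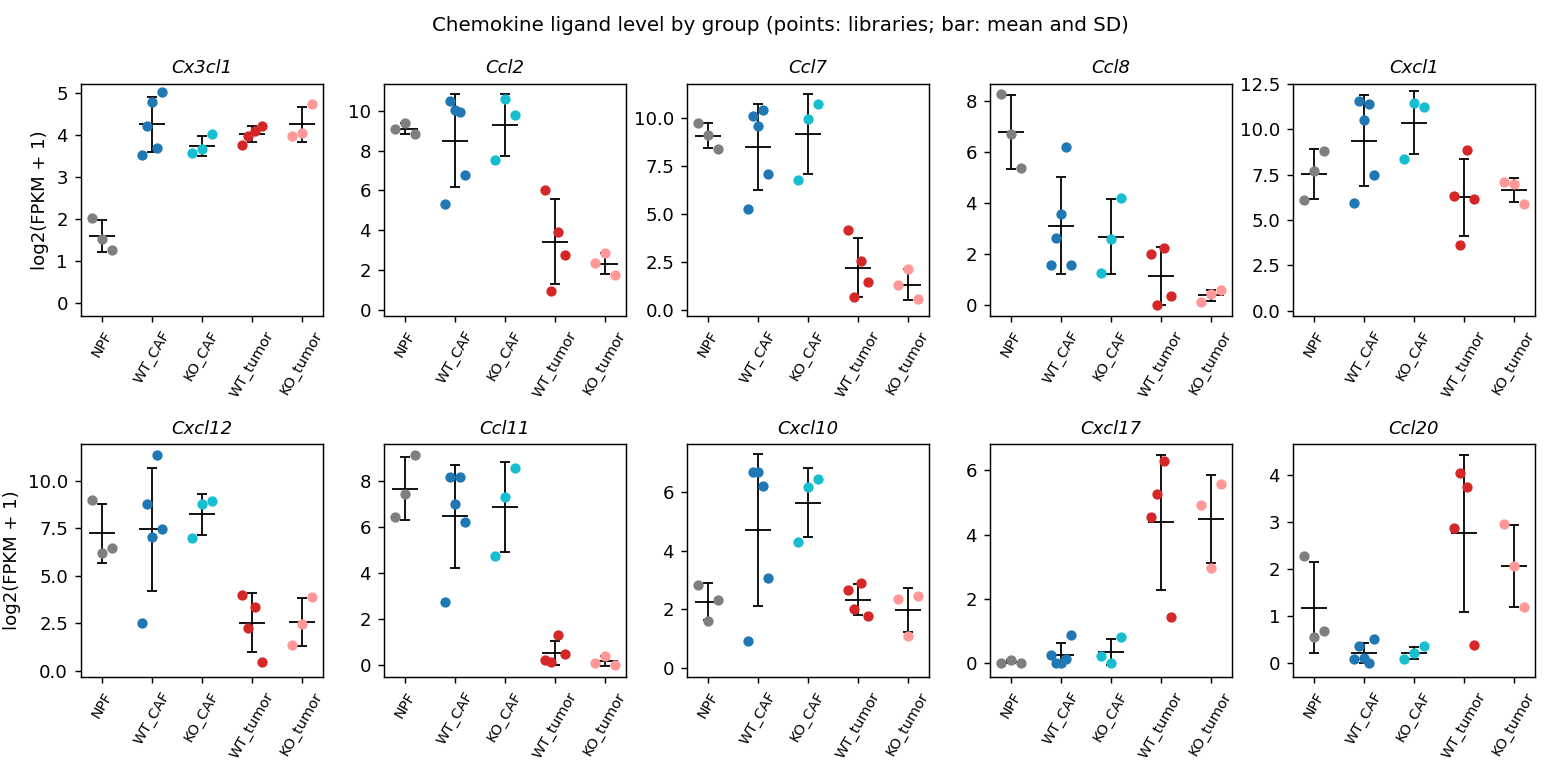
Level of 10 ligands by group as log2(FPKM + 1), with 1 point per library and the group mean and SD as a bar. Cx3cl1 is lowest in NPF (1.39 to 3.07 FPKM) and similar elsewhere, Ccl8 is highest in NPF, Cxcl17 is higher in every tumor cell library than in any fibroblast library, and Ccl20 is above 6 FPKM in 4 of 7 tumor cell libraries and below 4 FPKM in all fibroblasts.

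The Cxcr2 ligands attract neutrophils. Cxcl1, the most abundant of them, stood at 66.7, 207 and 447 FPKM in NPF, at 61.2, 3000, 1446, 2679 and 180.1 in WT_CAF, at 328, 2844 and 2436 in KO_CAF, at 78.7, 11.4, 465 and 71.6 in WT_tumor and at 135, 127 and 58.8 in KO_tumor. WT_CAF 2 to 4 and KO_CAF 2 and 3 were above every other library, WT_CAF 1, WT_CAF 5 and KO_CAF 1 were within the NPF range or below it, and WT_tumor 3 was above every NPF. No comparison of Cxcl1 passed the test. Its WT_CAF minus NPF difference was 1.23 ± 1.71 (limma adjusted p = 0.764), 4.02 ± 1.84 with WT_CAF 2 alone (adjusted p = 0.360) and -1.57 ± 1.84 with WT_CAF 1 alone (adjusted p = 0.635). Against fibroblasts it was -3.46 ± 1.502 in wild-type (adjusted p = 0.114) and -3.70 ± 1.53 in knockout tumor cells (adjusted p = 0.0841).

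Cxcl2, a neighbor of Cxcl1 with a like promoter motif, stood at 0.432, 1.83 and 2.41 FPKM in NPF, whereas WT_CAF libraries had 3.89, 222, 169, 85.6 and 9.27. KO_CAF had 60.2, 157 and 36.3, WT_tumor 9.49, 2.23, 137 and 10.5, and KO_tumor 35.4, 10.2 and 7.08. Every WT_CAF library was above every NPF library. The difference of 3.78 ± 1.57 did not pass the test (limma adjusted p = 0.248), and it was 6.54 ± 1.63 with WT_CAF 2 alone (adjusted p = 0.0712), 1.03 ± 1.63 with WT_CAF 1 alone (adjusted p = 0.742) and 4.99 ± 1.14 without WT_CAF 1 and the format term (adjusted p = 0.0157).

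Cxcl3 was lower throughout, at 0.176, 0.593 and 0 FPKM in NPF, 2.41, 8.78, 1.72, 2.84 and 0.447 in WT_CAF, 7.27, 7.19 and 1.85 in KO_CAF, 6.40, 0.853, 21.1 and 2.68 in WT_tumor and 11.1, 2.74 and 2.32 in KO_tumor. All libraries outside NPF except WT_CAF 5 were above every NPF value. Its WT_CAF minus NPF difference was 2.23 ± 0.88 (limma adjusted p = 0.227), 2.99 ± 1.09 with WT_CAF 2 alone and 1.47 ± 1.10 with WT_CAF 1 alone. Cxcl5, an epithelial-derived neutrophil attractant, stood at 105, 12.2 and 7.11 in NPF, 7.54, 22.1, 55.2, 12.9 and 4.52 in WT_CAF, 15.7, 9.44 and 10.1 in KO_CAF, 21.9, 18.8, 109.8 and 2.55 in WT_tumor and 39.6, 8.203 and 44.4 in KO_tumor. It was the leading Cxcr2 ligand in NPF 1 and WT_tumor 2, and Cxcl1 led in the other 16 libraries. Cxcl15 reached at most 0.865 FPKM and was not tested.

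Cxcl10, the interferon-induced Cxcr3 ligand that attracts T cells, stood at 6.17, 2.05 and 4.03 FPKM in NPF, at 0.905, 102, 101, 72.0 and 7.30 in WT_CAF, at 18.7, 70.4 and 86.6 in KO_CAF, at 5.26, 3.01, 6.48 and 2.43 in WT_tumor and at 4.10, 1.15 and 4.49 in KO_tumor. All tumor fibroblasts except WT_CAF 1 were above all NPF and all tumor cell libraries. Cxcl10 was lower in KO_tumor than in KO_CAF by -3.67 ± 1.19 (limma adjusted p = 0.0341). This call was lost when KO_CAF 2, KO_CAF 3 or any 1 KO_tumor library was left out. The wild-type difference of -3.14 ± 1.17 did not pass the test (adjusted p = 0.0705), and without WT_CAF 1, which changes only the spread, it did, at -3.14 ± 0.81 (adjusted p = 0.0119). The other Cxcr3 ligands were low, Cxcl9 with at most 2.24 FPKM and Cxcl11 with at most 0.274, and T and NK cell markers summed to at most 10.02 FPKM in any library.

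Among the remaining CXC ligands, Cxcl12, the ligand of Cxcr4 and Ackr3, stood at 509, 74.1 and 88.1 FPKM in NPF, at 4.79, 439, 133, 2653 and 178 in WT_CAF, at 127, 435 and 490.2 in KO_CAF, at 15.3, 3.77, 9.49 and 0.397 in WT_tumor and at 1.55, 4.62 and 13.8 in KO_tumor. WT_CAF 4 was far above all others, and tumor cells were below all fibroblasts except WT_CAF 1. It was lower in tumor cells by -5.55 ± 1.42 in wild-type (limma adjusted p = 0.0138) and -5.66 ± 1.44 in knockout (adjusted p = 0.0108). Leaving out WT_CAF 3 (adjusted p = 0.0544) or WT_CAF 4 ended the wild-type call, and leaving out KO_CAF 2 or KO_tumor 2 ended the knockout call.

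Cxcl13, which attracts B cells, stood at 5.19, 8.16 and 8.12 FPKM in NPF, at 0.0560, 59.9, 49.3, 574 and 57.5 in WT_CAF and at 16.7, 463 and 30.6 in KO_CAF. In tumor cells it ran from 0 to 0.381. All tumor fibroblasts except WT_CAF 1 were above all NPF. Against fibroblasts Cxcl13 was lower in WT_tumor by -6.62 ± 1.33 (limma adjusted p = 0.00397) and in KO_tumor by -5.81 ± 1.35 (adjusted p = 0.00666). Its WT_CAF minus NPF difference was -0.0018 ± 1.51 with all libraries, 2.92 ± 1.47 (adjusted p = 0.411) with WT_CAF 2 alone, -2.93 ± 1.47 (adjusted p = 0.219) with WT_CAF 1 alone and 3.65 ± 0.92 (adjusted p = 0.0267) without WT_CAF 1 and without the format term.

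Cxcl14, a ligand abundant in stroma and epithelia, stood at 16.2, 214 and 278 FPKM in NPF, at 5.46, 141, 282, 315 and 113 in WT_CAF, at 48.2, 157 and 283 in KO_CAF, at 0.391, 0.967, 29.0 and 1.03 in WT_tumor and at 4.67, 0.226 and 0.197 in KO_tumor. WT_tumor 3 was the high tumor cell library, and it also had the highest fibroblast marker sum of the tumor cells, 681 FPKM against 13.0 to 155; the part of these cells in the level was not tested. Cxcl14 was lower in WT_tumor by -6.12 ± 1.36 (limma adjusted p = 0.00664) and in KO_tumor by -6.01 ± 1.38 (adjusted p = 0.0064). Without WT_CAF 3 the wild-type call was lost (adjusted p = 0.0508).

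Cxcl17, a ligand of mucosal epithelium, showed the opposite pattern. It ran from 0 to 0.821 FPKM in the 11 fibroblast libraries, and stood at 22.1, 37.9, 77.5 and 1.67 in WT_tumor and at 29.1, 6.70 and 47.1 in KO_tumor. Every tumor cell library was above every fibroblast library, and WT_tumor 4 was the lowest of them. Cxcl17 was higher in WT_tumor by 3.96 ± 0.92 (limma adjusted p = 0.00824) and in KO_tumor by 4.15 ± 0.93 (adjusted p = 0.00564). The wild-type call was lost without WT_CAF 3 (3.55, limma adjusted p = 0.0781). Within 6-base libraries the differences were 4.33 in wild-type, with WT_CAF 3 alone, and 5.15 ± 1.46 in knockout (adjusted p = 0.0656), and neither was called. Within 16-base libraries Cxcl17 did not pass the filter.

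Cxcl16, a transmembrane ligand of Cxcr6, was above 8 FPKM throughout. Its values were 12.7, 13.7 and 13.3 FPKM in NPF, 21.5, 16.8, 31.8, 13.4 and 8.599 in WT_CAF, 27.4, 23.6 and 11.6 in KO_CAF, 20.9, 17.8, 66.8 and 14.1 in WT_tumor and 51.3, 22.8 and 38.7 in KO_tumor. The groups overlapped, apart from NPF and the tumor cell groups. Its KO_tumor minus WT_tumor difference was 0.60 ± 0.41 (limma adjusted p = 1).

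The eosinophil attractants Ccl11 and Ccl24 act through Ccr3. Ccl11 (eotaxin) stood at 85.7, 173 and 561 FPKM in NPF, at 5.72, 291, 126, 290.5 and 72.6 in WT_CAF, at 25.9, 156 and 378 in KO_CAF and between 0 and 1.45 in all 7 tumor cell libraries. No tumor cell value reached a fibroblast value. Ccl11 was lower in WT_tumor by -6.33 ± 1.14 (limma adjusted p = 0.00212) and in KO_tumor by -6.70 ± 1.16 (adjusted p = 0.00126), and both calls held when any 1 library was left out. Within 6-base libraries the differences were -6.36, with WT_CAF 3 alone, and -5.98 ± 0.81. Within 16-base libraries they were -6.97, with WT_tumor 1 alone, and -8.16, with 1 library on each side, and neither was called.

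Ccl24 (eotaxin-2) was near 0 in normal fibroblasts, at 0.126, 0 and 0.118 FPKM. It stood at 0.335, 19.7, 51.5, 8.06 and 7.65 in WT_CAF, at 71.4, 7.81 and 4.57 in KO_CAF, at 0.230, 0, 0.920 and 0.0811 in WT_tumor and at 0.476, 0 and 0 in KO_tumor. Every tumor fibroblast library was above every NPF library. The WT_CAF minus NPF difference was 2.28 ± 1.01 (limma adjusted p = 0.272), 4.26 ± 0.97 with WT_CAF 2 alone (adjusted p = 0.0503), 0.31 ± 0.97 with WT_CAF 1 alone (adjusted p = 0.896) and 3.98 ± 0.72 without WT_CAF 1 and the format term (adjusted p = 0.00376). Ccl24 was lower in WT_tumor than in WT_CAF by -4.18 ± 0.89 (adjusted p = 0.00518; 0.0710 without WT_CAF 3) and in KO_tumor than in KO_CAF by -3.74 ± 0.90 (adjusted p = 0.00798). Macrophages also make Ccl24. Their 12 markers summed to 20.0 to 102 FPKM in NPF, 64.1 to 199 in WT_CAF and 34.9 to 273 in KO_CAF. The highest sum and the highest Ccl24 were both in KO_CAF 1, where 9 of the 12 markers reached 1 FPKM. A sum can rest on few markers. Only 3 reached 1 FPKM in NPF 1 (sum 102) and WT_CAF 1 (104), against 9 in WT_CAF 2 (84.0). The part of macrophages in the Ccl24 level was not tested. Ccl26 was at 0 in every library.

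Ccl3, Ccl4, Ccl5, Ccl6 and Ccl9 attract monocytes, macrophages and T cells and are made largely by leukocytes. Ccl6 stood at 2.36, 0.124 and 0.789 FPKM in NPF, at 0.597, 9.74, 6.25, 27.1 and 11.7 in WT_CAF, at 22.4, 2.88 and 5.17 in KO_CAF, at 2.82, 3.34, 15.8 and 2.05 in WT_tumor and at 14.8, 3.15 and 1.37 in KO_tumor. The highest tumor cell values, in WT_tumor 3 and KO_tumor 1, fell in the libraries with the highest macrophage marker sums of the tumor cells, 223 and 220.3 FPKM; the part of these cells was not tested. Ccl6 was not called in WT_CAF minus NPF (1.13 ± 1.05, limma adjusted p = 0.622; 2.51 with WT_CAF 2 alone and -0.24 with WT_CAF 1 alone), and was called without WT_CAF 1 and the format term (2.77 ± 0.76, adjusted p = 0.0410). Ccl3, Ccl4 and Ccl5 did not exceed 7.94 FPKM in any library, Ccl9 reached 34.0 in WT_CAF 4, and none of the 4 was called in any comparison. Ccl3 and Ccl4 were highest in WT_tumor 3, KO_CAF 1, KO_tumor 1 and WT_CAF 2.

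Ccl17, a Ccr4 ligand, was low in every group, with 1.21, 0.686 and 0 FPKM in NPF, 0.0879, 2.72, 0.936, 2.75 and 5.57 in WT_CAF, 1.31, 0.597 and 0 in KO_CAF, 0.581, 0.110, 0 and 0.148 in WT_tumor and 0.314, 0.436 and 1.44 in KO_tumor. It was called lower in WT_tumor than in WT_CAF (-1.53 ± 0.51, limma adjusted p = 0.0464), and this call was lost in 17 of 27 alternatives, among them leaving out WT_CAF 5 (-1.17, adjusted p = 0.139). Ccl22 and Ccl1, the other ligands of Ccr4 and Ccr8, reached at most 0.497 and 0 FPKM.

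Cx3cl1 (fractalkine) is anchored in the membrane and binds Cx3cr1 on monocytes. It stood at 3.07, 1.89 and 1.39 FPKM in NPF, at 10.6, 17.6, 26.7, 11.9 and 31.7 in WT_CAF, at 10.8, 11.7 and 15.2 in KO_CAF, at 12.7, 14.7, 16.1 and 17.6 in WT_tumor and at 14.7, 15.6 and 25.6 in KO_tumor. The 3 NPF libraries were the lowest of all 18, and the other 4 groups overlapped. Cx3cl1 was higher in WT_CAF than in NPF by 2.27 ± 0.38 (limma adjusted p = 0.0126). WT_CAF 1, low for many fibroblast ligands, was above every NPF here. Its epithelial marker sum was the highest of the fibroblasts, 648 FPKM, and tumor cells held Cx3cl1 at 12.7 to 25.6 FPKM. WT_CAF 5, the highest for Cx3cl1, had the next highest epithelial sum, 352, whereas KO_CAF 1, with 219, stood at 10.8. The part of epithelial cells in these levels was not tested. With WT_CAF 2 alone the difference was 2.62 ± 0.47 (adjusted p = 0.0187), the spread coming from the other groups, and with WT_CAF 1 alone it was 1.93 ± 0.47 (adjusted p = 0.023). The call was lost without NPF 2 (2.23, adjusted p = 0.0828), with only the 2 groups in the fit (adjusted p = 0.270) and among the 5 libraries without an index (adjusted p = 0.341). Xcl1 reached at most 0.440 FPKM.

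**Figure D4:**
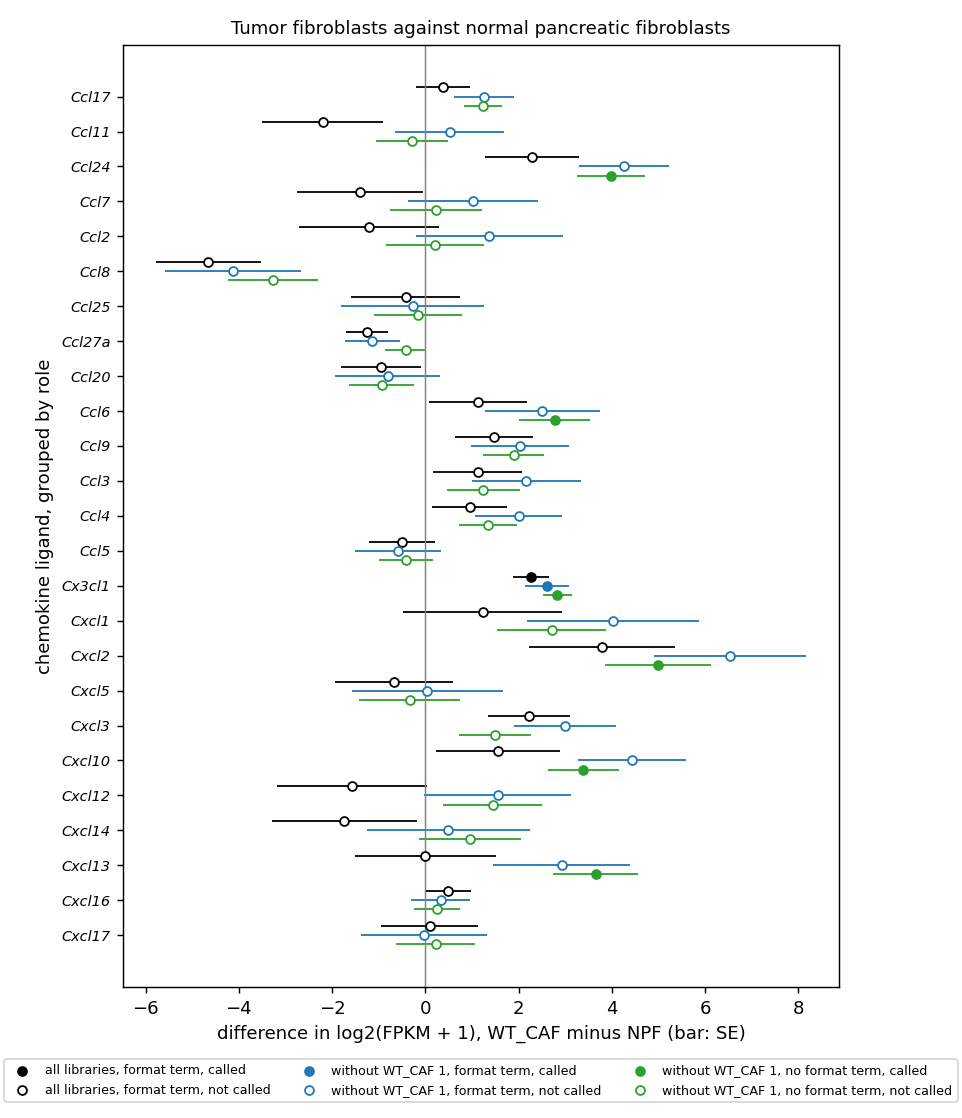
Difference in log2(FPKM + 1) between WT_CAF and NPF for the 25 tested ligands with all libraries (black), without WT_CAF 1 so that WT_CAF 2 alone is compared (blue) and without WT_CAF 1 and the format term (green); bars are SE and filled points passed the test. Cx3cl1 is filled in all 3, and Cxcl2, Cxcl10, Cxcl13, Ccl24 and Ccl6 are filled in green alone.

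Of the epithelial and mucosal CC ligands, Ccl20, which attracts Ccr6-bearing lymphocytes, stood at 3.89, 0.456 and 0.602 FPKM in NPF, at 0.0501, 0.285, 0.0658, 0 and 0.410 in WT_CAF, at 0.0564, 0.154 and 0.272 in KO_CAF, at 6.35, 15.6, 12.6 and 0.293 in WT_tumor and at 6.74, 3.17 and 1.27 in KO_tumor. Every NPF library was above every WT_CAF library. WT_tumor 4 was inside the tumor fibroblast range and the other tumor cells were above it. Ccl20 was higher in WT_tumor by 2.62 ± 0.76 (limma adjusted p = 0.0253), and the call was lost without WT_CAF 3, WT_CAF 4, WT_tumor 1, WT_tumor 2 or WT_tumor 3. In KO_tumor the difference was 1.85 ± 0.77 (adjusted p = 0.0867). WT_tumor 4 had the lowest epithelial marker sum of the tumor cells, 2963 FPKM, against at most 648 in any fibroblast library. All 10 of its markers reached 1 FPKM, with the epithelial adhesion molecule gene Epcam at 2.60. Leaving this library out moved the knockout limma adjusted p of Ccl20 to 0.0147 through the pooled spread.

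Ccl25, the thymic and intestinal ligand of Ccr9, stood at 122 FPKM in WT_tumor 2 and at 4.26, 1.13 and 3.98 in WT_tumor 1, 3 and 4. Its values were 5.55, 1.33 and 2.05 in NPF, 1.42, 1.98, 1.76, 1.48 and 4.43 in WT_CAF, 0.872, 1.22 and 1.46 in KO_CAF and 2.56, 2.94 and 0.832 in KO_tumor. WT_tumor 2 alone was above 5.55. Ccl27a, a skin-type ligand of Ccr10, stood at 18.8, 6.94 and 5.34 in NPF, at 2.89, 3.53, 13.0, 6.46 and 5.49 in WT_CAF, at 11.3, 6.49 and 7.72 in KO_CAF, at 5.25, 4.07, 10.4 and 10.4 in WT_tumor and at 10.02, 5.34 and 7.57 in KO_tumor. All groups overlapped for Ccl27a, and its WT_CAF minus NPF difference was -1.25 ± 0.46 (limma adjusted p = 0.198), -1.14 with WT_CAF 2 alone and -1.36 with WT_CAF 1 alone. Ccl27b and Ccl28 were at 0 in every library, as were the Ccr7 ligands Ccl19, Ccl21a, Ccl21b and Ccl21c. Reads of near-identical copies (Ccl21a to Ccl21c, Ccl27a and Ccl27b, and copies of Ccl19) could be split or lost in the authors' estimate, so these values are uncertain.

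Saa3 knockout and wild-type groups overlapped for each of the 25 tested ligands, in fibroblasts and in tumor cells. Groups did not overlap for 1.20% of all tested genes in KO_CAF against WT_CAF and for 3.61% in KO_tumor against WT_tumor, so 0 of 25 is close to the background. In fibroblasts the 5 smallest p-values belonged to Cx3cl1 (-0.81 ± 0.35), Ccl17 (-1.17 ± 0.53), Cxcl3 (1.07 ± 0.81), Ccl6 (-0.78 ± 0.97) and Ccl8 (-0.79 ± 1.04), each with a limma adjusted p of 1. In tumor cells they belonged to Ccl25 (-1.63 ± 0.98), Cxcl16 (0.60 ± 0.41), Ccl20 (-0.71 ± 0.72), Ccl17 (0.47 ± 0.49) and Ccl2 (-1.17 ± 1.26), again with an adjusted p of 1. For the interaction they belonged to Ccl17 (1.64 ± 0.73), Cx3cl1 (1.06 ± 0.48), Cxcl3 (-1.15 ± 1.10), Ccl2 (-1.85 ± 1.89) and Cxcl16 (0.59 ± 0.61), with an adjusted p of 1.

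These values do not show that the groups are alike. The 95% intervals of the KO_CAF minus WT_CAF differences had half-widths from 0.76 (Cx3cl1) to 3.37 (Cxcl1), and 24 of 25 reached past a difference of 1 in at least 1 direction. For Cxcl1 the interval ran from -2.73 to 4.01, for Ccl2 from -2.28 to 3.65 and for Cxcl12 from -3.15 to 3.23. In tumor cells 23 of 25 reached past 1, with an interval for Cxcl1 from -2.67 to 3.46. The spread inside the fibroblast groups was large: over the 7 tumor fibroblast libraries other than WT_CAF 1, the highest value was 14.1 times the lowest for Ccl2, 15.5 times for Ccl7, 16.7 times for Cxcl1 and 50.8 times for Ccl8, against 2.93 times for Cx3cl1.

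**Figure D5:**
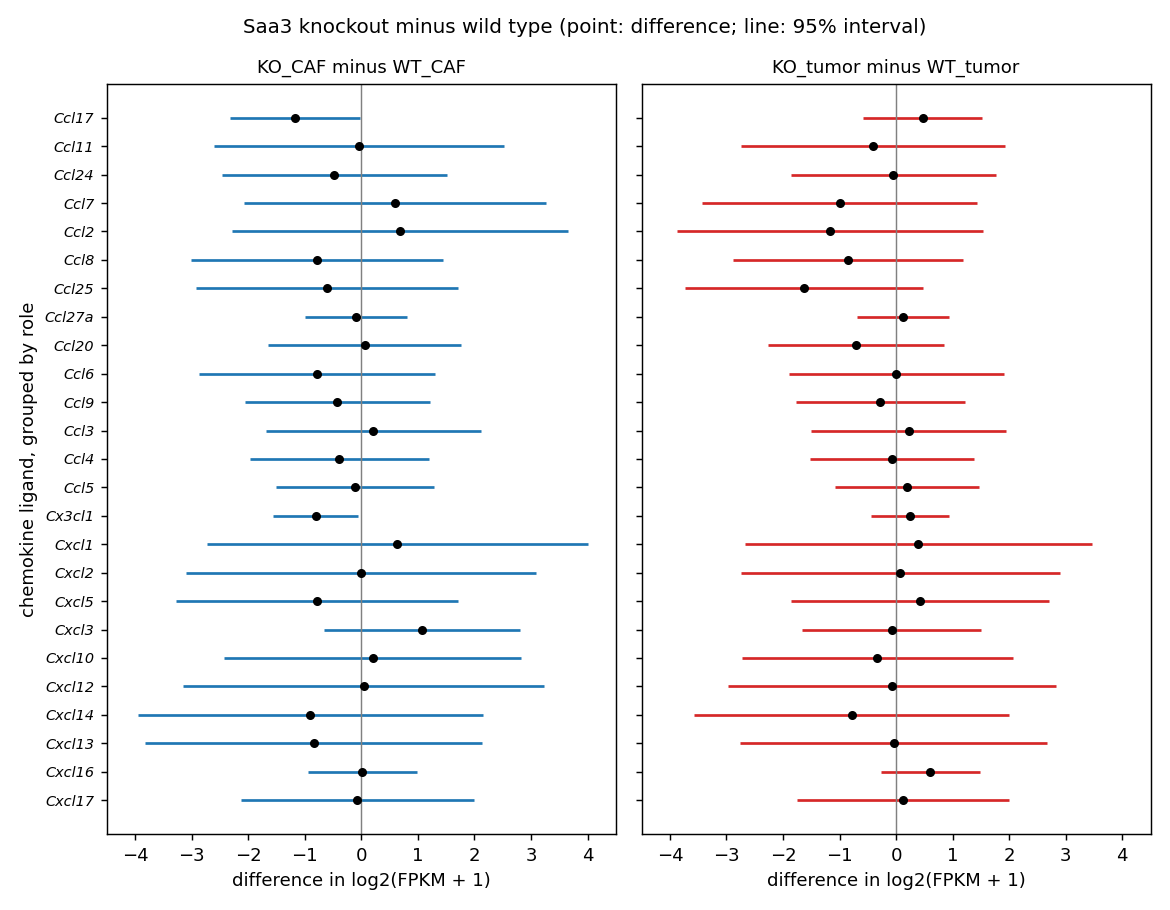
Difference in log2(FPKM + 1) between Saa3 knockout and wild-type fibroblasts (left) and tumor cells (right) for the 25 tested ligands, with 95% intervals as lines. Intervals of abundant ligands such as Cxcl1 (-2.73 to 4.01 in fibroblasts) span several units on both sides of 0.

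Of 23 chemokine receptor genes, 8 passed the filter, and 0 were called in WT_CAF minus NPF (background 0.277% higher and 0.673% lower) or in the knockout comparisons (background 0.00748% or 0%), shares at which 0 of 8 is no result about receptors. In the tumor cell comparisons 2 of 8 were lower in each, against 12.5% and 15.4% of all genes. The atypical receptor Ackr4, which scavenges CC ligands, ran from 0.0128 to 0.168 FPKM in tumor cells and from 0.577 to 61.5 in fibroblasts. It was lower in WT_tumor by -3.21 ± 0.95 (limma adjusted p = 0.0282) and in KO_tumor by -4.47 ± 0.97 (adjusted p = 0.00463). Ccrl2, which presents chemerin, was lower by -1.96 ± 0.61 (adjusted p = 0.0344) and -1.96 ± 0.62 (adjusted p = 0.0301), calls that were lost in 12 and 9 of 30 alternatives. The wild-type call of Ackr4 was lost in 7 of 30. Ackr3, the scavenging receptor of Cxcl12, was the most abundant receptor and ran from 17.3 to 221 FPKM over all libraries without a call. Of the receptors for the ligands described above, Cxcr4 reached at most 3.49 FPKM (KO_tumor 1), Ccr7 2.53 (WT_CAF 4) and Ccr1 1.76 (KO_CAF 1). Cxcr2 reached at most 1.43 (KO_tumor 1), Cxcr3 0.608, Ccr2 0.530 and Cx3cr1 0.159. KO_tumor 1 and KO_CAF 1 had neutrophil marker sums of 525.7 and 539.7 FPKM, against at most 84.0 in every other library. The part of neutrophils in these levels was not tested.

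Of 25 genes of NF-kB and Toll-like receptor signalling, 0 were called between WT_CAF and NPF, and 22 had differences above 0, as did 49.1% of all genes; these signs rest on WT_CAF 1 and 2. Between tumor cells and fibroblasts, 5 were lower in wild-type cells (Il6, Il1r1, Myd88, Tlr2 and Tnfrsf1a), against 12.5% of all genes. The call of Tnfrsf1a was lost in 15 of 30 alternatives, that of Myd88 in 6, Tlr2 in 3, Il6 in 2 and Il1r1 in 1. In knockout cells the same 5 were lower and 2 were higher, Il1a (3.20 ± 0.99, limma adjusted p = 0.0273) and Tnf (3.22 ± 0.80, adjusted p = 0.00965), against 15.4% lower and 13.0% higher over all genes. The call of Il1a was lost in 7 of 30 alternatives and that of Tnf in 2. The cytokine Il6 had the largest of these differences, -6.64 ± 1.24 (adjusted p = 0.00253) and -7.74 ± 1.26 (adjusted p = 0.000921), and like Cxcl1 it was low in WT_CAF 1 (26.5 FPKM), WT_CAF 5 (79.6) and KO_CAF 1 (133) against 414 to 995 in the other tumor fibroblasts. The inhibitor gene Nfkbia ran from 14.7 to 70.5 FPKM in NPF, and WT_CAF had 26.4, 521, 475, 749.8 and 129.

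Among interferon-gamma signalling genes, Gbp2, an interferon-induced GTPase, was lower in tumor cells than in fibroblasts, by -3.36 ± 0.52 in wild-type (limma adjusted p = 0.000985) and -3.11 ± 0.53 in knockout cells (adjusted p = 0.00117). Socs1, a feedback inhibitor of cytokine signalling, was lower by -2.41 ± 0.77 (adjusted p = 0.0399) and -2.77 ± 0.79 (adjusted p = 0.0186), calls that were lost in 15 and 4 of 30 alternatives. Ifng itself did not exceed 0.0778 FPKM. Of 6 proteases that shed or trim chemokines, the peptidase genes Mmp2 and Dpp4 were lower in tumor cells in both comparisons. Over all genes, 12.5% were lower in the wild-type and 15.4% in the knockout comparison. The Dpp4 calls were lost in 10 and 5 of 30 alternatives. Mmp2 was lower by -7.67 ± 1.09 (adjusted p = 0.000655) in wild-type and -8.22 ± 1.10 (adjusted p = 0.000331) in knockout cells. The sheddases of Cx3cl1 and Cxcl16, Adam10 and Adam17, stood at 18.2 to 49.6 and 6.16 to 23.7 FPKM and were not called.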

How the data were processed

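Gene expression in 18 libraries was read from a single table of 23951 genes that the authors deposited in FPKM (fragments scaled by transcript length and library size). RNA of the sorted cells went through an Illumina TruSeq RNA kit before HiSeq2000 sequencing, per the labels' protocols. The submitters' processing notes name TopHat2 2.0.10 with Bowtie 1.0.0, Cufflinks 2.2.1 with Cuffnorm, SAMtools 0.1.19 and FastQC, and list mm9 as the mouse build; settings were not given in the sources used here. A value of 0 may be a failed estimate, since collagen genes read 0 in some fibroblast libraries. Depth in reads is unknown, so no counting error is given.

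Groups were taken from the labels, and replicate numbers follow deposition order. Replicates are biological per the series design; which animals they came from is not given. No 2 libraries held identical values. Genes with 1 FPKM or more in 3 libraries (13369) were tested with limma 3.58.1 (R 4.3.3) on log2(FPKM + 1), with group and library format (index length in the labels) as terms, a mean-variance trend, all groups in 1 fit and 11 residual degrees of freedom. P-values were Benjamini-Hochberg adjusted over all tested genes. The scripts were tested on simulated data. Intervals are 95%. Motifs and sequences came from RefSeq tables of GRCm38.p6, which is not the build of the FPKM table, so only gene order and promoters were taken from them.

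The ligands, gene lists, marker lists and tests were chosen with earlier results of these data known. Values by library, or their range in groups near 0, are given for members called in any comparison, the 3 most abundant of each group and the 5 with the smallest p in each comparison. Alternatives covered the pseudocount, the filter, scaling, the format term, the samples in the fit, and leaving out each library.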

Additional observations from a re-analysis of the deposited data

Results flagged for a closer look

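In groups of 4 or 5 libraries, each tested ligand was checked for a library whose gap to its nearest neighbor was large for the range of the group. Of 50 sets, 4 (8%) were picked out, where chance picks out about 1 in 20. Cxcl14 was lowest in WT_CAF 1, at 5.46 FPKM against 113 to 315 in the rest of its group, and highest in WT_tumor 3, at 29.0 against 0.391 to 1.03. Ccl25 was highest in WT_CAF 5, at 4.43 FPKM against 1.42 to 1.98, and Cxcl17 was highest in WT_CAF 5, at 0.821 against 0 to 0.187. WT_CAF 5 had an epithelial marker sum of 352 FPKM and WT_tumor 3 a fibroblast marker sum of 681; their part in these values was not tested.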

How the results depend on the processing

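Counts of called ligands depended on the libraries in the fit, and the cause was not tested unless named. WT_CAF minus NPF gave 1 higher and 0 lower. The higher count was 0 with only the groups compared, 0 within libraries without an index, 6 without WT_CAF 1 and the format term, and 0 to 1 when single libraries were left out (0 without NPF 2); the lower count then ran from 0 to 2 (2 without WT_CAF 2, which leaves WT_CAF 1 alone against NPF, 1 without WT_CAF 4 or 5). WT_tumor minus WT_CAF gave 2 higher and 8 lower. The higher count was 0 with only the groups compared and ran from 0 (without WT_CAF 3) to 2 when libraries were left out. Within 6-base libraries, where WT_CAF 3 stands alone, neither Cxcl17 nor Ccl20 was called. Within 16-base libraries neither passed the filter, so neither could be called there in wild-type or knockout cells. The lower count was 4 with only the groups compared and ran from 4 (without WT_CAF 3) to 10 when libraries were left out. Fewer lower calls were also made within 6-base and within 16-base libraries, which hold fewer samples. KO_tumor minus KO_CAF gave 1 higher and 8 lower. The higher count was 2 with a pseudocount of 0.1, 2 after rescaling to TPM, 3 with only the groups compared, 0 within 6-base and 0 within 16-base libraries, 2 without WT_CAF 1 and WT_tumor 4, and 1 to 2 when libraries were left out. The lower count was 0 within 16-base libraries and 6 to 10 when libraries were left out. No call reversed. Reversed differences were uncalled: Ccl6 in KO_CAF minus WT_CAF was 0.40 and Ccl2 in the interaction 0.49 within 6-base libraries, and Ccl8 in KO_CAF minus WT_CAF was 0.30 within 16-base libraries and ran from -1.96 (without WT_CAF 5) to 0.18 (without WT_CAF 4) when libraries were left out. Over all genes, WT_CAF minus NPF gave 37 higher and 90 lower calls as reported. These were 0 and 0 within libraries without an index, and 516 and 390 without WT_CAF 1 and the format term. Tumor minus fibroblast calls over all genes fell in both genotypes within 16-base libraries. There some groups hold a single library, and the filter was applied anew to fewer libraries. Rescaling to TPM moved the median of all genes from -0.01 to 0.19 in WT_CAF minus NPF, from 0.07 to 0.23 in WT_tumor minus WT_CAF and from -0.01 to -0.11 in the interaction. No paired analysis was possible because the labels give no shared replicate numbers or animals.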
